A study of Homo sapiens with 12 samples.

Results

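Metallothioneins were followed here through 7 genes, MT1E, MT1F, MT1G, MT1H, MT1M, MT1X and MT2A, in DAAD2 treated and control liver cancer cells. They were represented by 11 probe sets of the 54613 tested on Affymetrix Human Genome U133 Plus 2.0 arrays, namely all those that the platform annotation assigns to 1 of these symbols. MT1E, MT1F, MT1G and MT1X had 2 probe sets each, MT1H, MT1M and MT2A had 1 each, and 0 probe sets were assigned to a member together with another gene.

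Hep3B, a DAAD2-sensitive human hepatocellular carcinoma (HCC) line, and SNU449, a DAAD2-resistant one, were profiled in 4 groups of 3 arrays. Hep3B received 2 μM DAAD2 or 0.1% DMSO, and SNU449 received 20 μM DAAD2 or 0.1% DMSO, each for 72 h. DAAD2 is dehydroabietylamine, a resin acid amine, coupled to N-acetyl cysteine, and DMSO is its vehicle. The dose of the drug differed between the lines, so line and dose cannot be told apart in the treated arrays. The labels speak of triplicates without saying that these were independent cultures, so the p-values cover array-to-array variation alone, part or all of which may be technical.

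Metallothioneins are small cysteine-rich proteins that bind zinc, copper and cadmium, and the liver is among the tissues known for making them. Their genes lie in a cluster on chromosome 16 and are switched on by metals through the factor MTF1, which binds metal response elements in their promoters, and also by glucocorticoids and oxidative stress. Loss of MT1 transcripts, MT1G and MT1M among them, is known from HCC tissue.

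The promoters are shown for their metal response elements, and whether these bear on the levels given further on was not tested. RefSeq promoters (GRCh38.p14, 250 bases before to 50 after the start of the gene) were matched for 3 of the 7 members. MT2A lies at chr16:56608334-56608633, MT1H at chr16:56669564-56669863 and MT1X at chr16:56682220-56682519, all on the plus strand. Capitals mark the core of the metal response element, searched as TGCACNC and TGCGCNC on both strands, with no overlap between matches in these promoters.

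MT2A: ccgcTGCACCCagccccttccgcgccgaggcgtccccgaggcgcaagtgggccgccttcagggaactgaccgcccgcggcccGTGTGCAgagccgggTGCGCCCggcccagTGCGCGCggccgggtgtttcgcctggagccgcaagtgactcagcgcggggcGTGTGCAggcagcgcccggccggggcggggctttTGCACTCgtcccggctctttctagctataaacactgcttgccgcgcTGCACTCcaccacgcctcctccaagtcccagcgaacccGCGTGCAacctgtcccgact
MT1H: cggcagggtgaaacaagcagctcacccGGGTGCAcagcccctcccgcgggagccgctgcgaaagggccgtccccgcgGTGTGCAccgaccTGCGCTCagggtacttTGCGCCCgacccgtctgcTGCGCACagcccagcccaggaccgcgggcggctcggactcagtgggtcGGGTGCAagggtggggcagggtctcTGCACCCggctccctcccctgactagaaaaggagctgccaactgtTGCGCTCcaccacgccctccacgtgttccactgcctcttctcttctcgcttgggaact
MT1X: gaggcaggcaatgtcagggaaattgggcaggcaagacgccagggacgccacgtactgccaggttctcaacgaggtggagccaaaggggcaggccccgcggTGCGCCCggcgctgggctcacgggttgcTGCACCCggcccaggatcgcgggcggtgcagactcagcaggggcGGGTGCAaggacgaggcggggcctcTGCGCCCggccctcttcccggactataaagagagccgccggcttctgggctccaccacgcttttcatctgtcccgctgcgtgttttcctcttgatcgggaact

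MT2A and MT1H held 8 cores each, 5 of them on the strand of the gene and 3 on the other, and MT1X held 4, of which 3 were on the strand of the gene. A core lay 53 or 54 bases before the start in all 3 promoters. Of 35116 RefSeq promoters of the same length, 29.551% held at least 1 core and 0.601% held 4 or more. The cut-off of 4 was the lowest count among these 3 promoters, so they meet it by construction. SLC30A1, the zinc exporter that MTF1 is also known to switch on, held 2. A match of letters was found here, and binding was not measured.

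**Figure D1:**
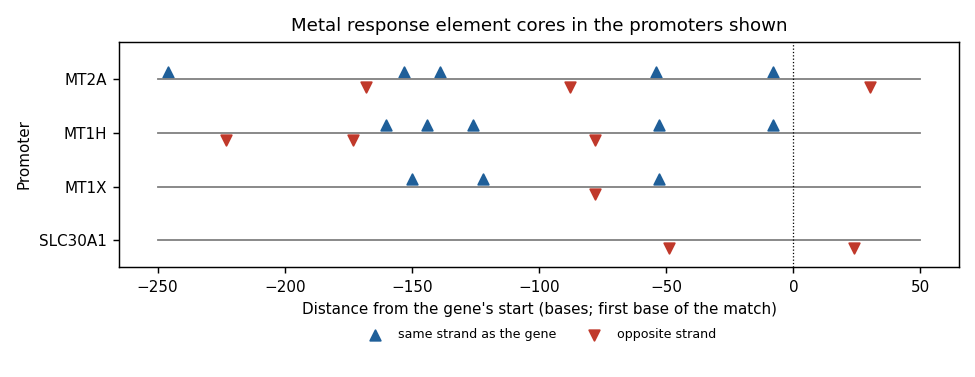
Position of each metal response element core in the promoters of MT2A, MT1H, MT1X and SLC30A1, as the distance in bases of its leftmost base from the start of the gene (x axis). Triangles pointing up stand for cores on the strand of the gene and triangles pointing down for the opposite strand. MT2A and MT1H carry 8 cores each, MT1X 4 and SLC30A1 2.

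Whether the probe sets tell the genes apart matters for everything that follows. Of the 11 probe sets 9 have a name ending in x_at, which Affymetrix gives where some probes may also bind other transcripts, so a level or a change cannot be placed in 1 gene of the family. The probe set 204326_x_at, annotated as MT1X, carries as its annotation accession a RefSeq transcript of MT1L, a pseudogene of the same cluster. The remaining 2, MT1G 210472_at and MT1M 217546_at, lay between 2.53 and 3.47 on the log2 scale on all 12 arrays, below the median of all probe sets on every array (3.71 to 3.85). The 9 x_at probe sets are called bright below and these 2 dim. Values of different probe sets were not set against each other, since each has its own affinity.

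The lines largely showed the markers chosen for them, hepatocyte markers for Hep3B and mesenchymal markers for SNU449. In DMSO controls, 7 of 8 hepatocyte markers were higher in Hep3B, with albumin at 14.53 in Hep3B and 3.18 in SNU449, and FGB, a fibrinogen chain, was the exception with 6.01 in Hep3B and 10.06 in SNU449. Of 5 mesenchymal markers 4 were lower in Hep3B, the exception being TGFBI, an extracellular matrix protein, and the 3 leukocyte markers measured had means between 3.23 and 5.37 in Hep3B controls and between 3.21 and 4.95 in SNU449 controls. The GAPDH 3′ minus 5′ signal, a sign of RNA integrity, ranged from 0.34 to 1.99 over the arrays and was highest in SNU449 DAAD2 replicate 2. With it as a covariate, the number of metallothionein probe sets called was the same in each comparison below.

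The widest contrast in the metallothionein data was that between the lines, and it was present without the drug. In controls all 9 bright probe sets were lower in Hep3B than in SNU449, by 3.15 to 5.25 on the log2 scale, or 8.88- to 38.2-fold (limma, adjusted p between 2.89e-09 and 9.15e-06). That is 9 of 11 probe sets called lower in Hep3B, against 14.8% of all probe sets tested called lower and 29.3% called in either direction. In bulk RNA, fewer expressing cells and less RNA per cell cannot be told apart, nor can line and culture.

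MT2A, the single human MT2 gene and a major metal-binding isoform, measured 8.26, 8.52 and 8.50 in Hep3B DMSO controls and 13.17, 13.24 and 13.30 in SNU449 DMSO controls. Every SNU449 array lay above every Hep3B array, and the difference, Hep3B minus SNU449, was -4.81 (SE 0.11), which is 28.1-fold lower in Hep3B (adjusted p = 6.07e-09).

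Among the members, the widest gap was that of a probe set annotated as MT1E. The MT1 isoforms share the metal-binding role, and MT1E is among them. Its probe set 212859_x_at measured 7.03, 7.01 and 6.74 in Hep3B controls and 12.13, 12.21 and 12.22 in SNU449 controls, a difference of -5.25 (SE 0.11, 38.2-fold, adjusted p = 4.54e-09). Its other probe set, 216336_x_at, measured 6.04, 6.14 and 6.23 in Hep3B controls and 11.03, 11.20 and 11.10 in SNU449 controls, a difference of -4.98 (31.5-fold). The groups were far apart in both.

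MT1H measured 7.85, 7.86 and 7.77 in Hep3B controls and 12.67, 12.78 and 12.70 in SNU449 controls, a difference of -4.89 (29.7-fold). MT1X 208581_x_at measured 7.46, 7.52 and 7.63 in Hep3B controls and 12.49, 12.61 and 12.58 in SNU449 controls, a difference of -5.02 (32.4-fold). Probe set 204326_x_at measured 5.93, 6.08 and 5.69 in Hep3B controls and 10.53, 10.57 and 10.30 in SNU449 controls, a difference of -4.57 (23.7-fold). Hep3B was thus low at the probe set annotated as MT1H and at both annotated as MT1X, with no overlap.

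MT1F 213629_x_at and MT1G 204745_x_at had the narrowest gaps of the bright probe sets. MT1F 217165_x_at measured 6.72, 6.89 and 7.11 in Hep3B controls and 11.51, 11.70 and 11.60 in SNU449 controls, a difference of -4.70 (25.9-fold). MT1F 213629_x_at measured 6.02, 6.21 and 5.65 in Hep3B controls and 8.57, 9.40 and 9.36 in SNU449 controls, a difference of -3.15 (SE 0.23, 8.88-fold). MT1G 204745_x_at measured 7.92, 8.29 and 8.50 in Hep3B controls and 11.75, 11.74 and 11.68 in SNU449 controls, a difference of -3.48 (11.2-fold). All 3 kept the lines apart. The widest SD between control arrays was 0.47, for MT1F 213629_x_at in SNU449. In Hep3B controls the SD was 0.29 for MT1G 204745_x_at and 0.28 for MT1F 213629_x_at.

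The 2 dim probe sets were not called between the lines. MT1G 210472_at averaged 3.28 ± 0.10 in Hep3B controls and 3.33 ± 0.12 in SNU449 controls (SD, n = 3 each), a difference of -0.05 with a 95% confidence interval of -0.29 to 0.18 (limma, adjusted p = 0.773). MT1M 217546_at averaged 2.79 ± 0.25 in Hep3B controls and 3.10 ± 0.17 in SNU449 controls, a difference of -0.31 with an interval of -0.64 to 0.02 (limma, adjusted p = 0.165). Both lay below the median of every array in both lines, so these differences set no bound on MT1G or MT1M transcripts, and the MT1G contrast above rests on 204745_x_at alone.

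**Figure D2:**
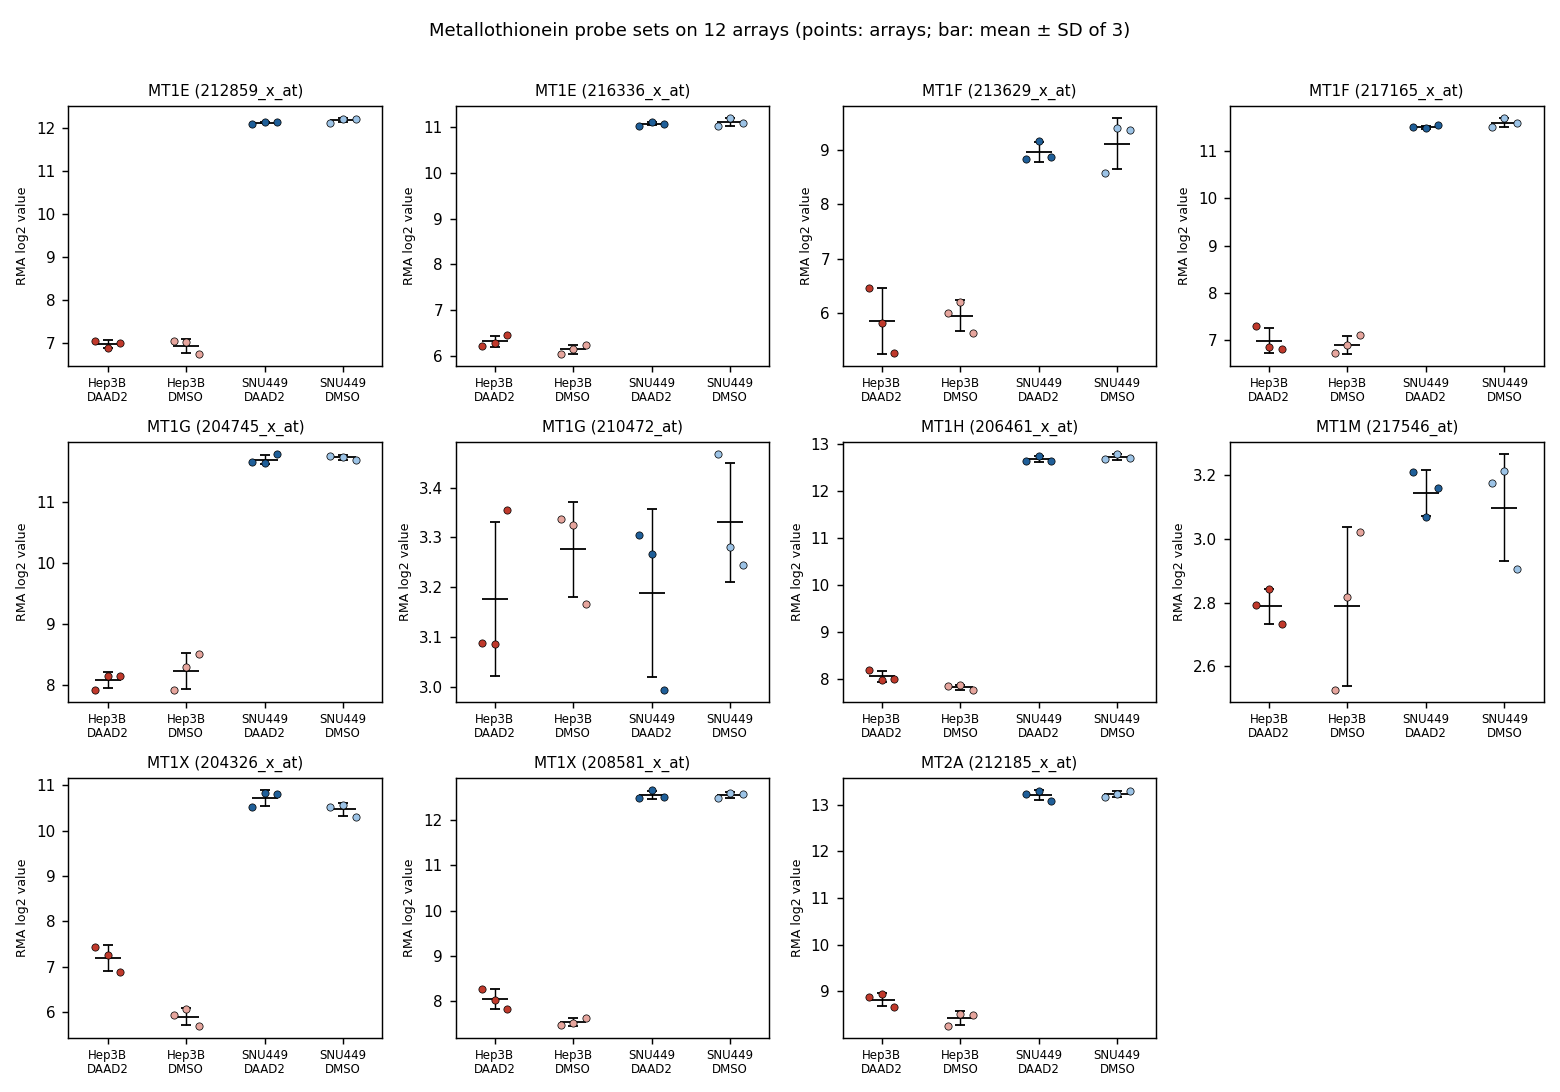
RMA log2 values (y axis, own range in each panel) of the 11 metallothionein probe sets in the 4 groups (x axis). Points are arrays, and the bar with whiskers is the mean ± SD of 3 arrays. In 9 panels every SNU449 array lies above every Hep3B array, and the panels of MT1G 210472_at and MT1M 217546_at stay between 2.53 and 3.47.

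The treated arrays kept this order. On DAAD2 arrays the 9 bright probe sets lay lower in Hep3B than in SNU449 by 3.09 to 5.15, and for each of them every SNU449 array, treated or not, stood above every Hep3B array. The order of the groups was therefore both SNU449 groups above both Hep3B groups. Within SNU449 the DAAD2 and DMSO values overlapped for all 9, and within Hep3B they overlapped for 5 of the 9, so those neighbours are not apart beyond their spread.

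**Figure D3:**
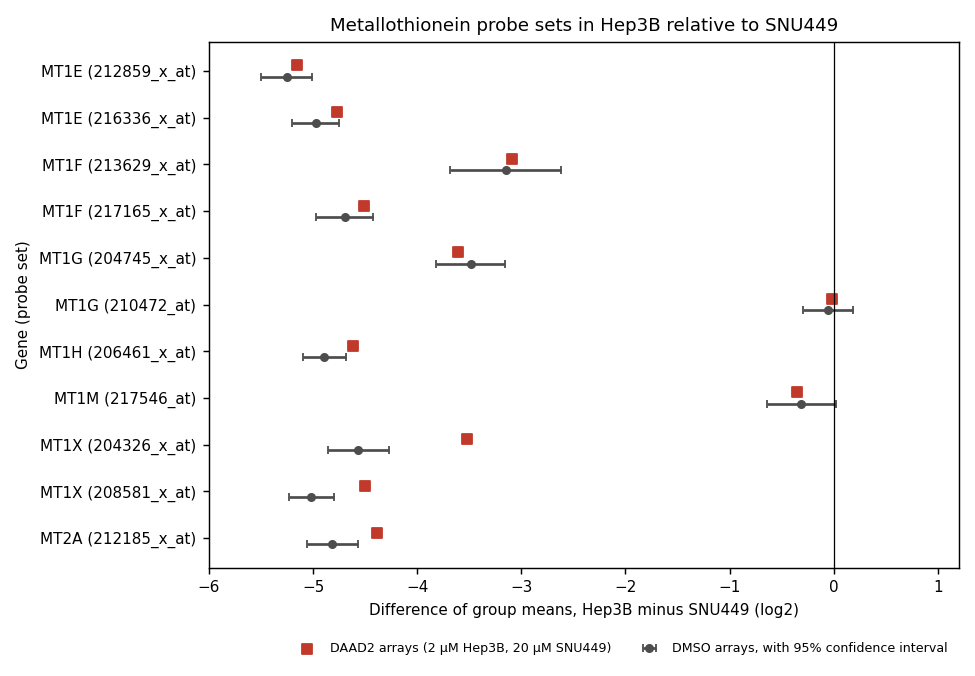
Difference between the group means of Hep3B and SNU449 (x axis, log2) for each metallothionein probe set (y axis), in DAAD2 arrays (squares) and in DMSO arrays (circles, with the 95% confidence interval). The bright probe sets lie between -5.25 and -3.09, and the 2 dim ones between -0.36 and -0.01.

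In Hep3B, DAAD2 treatment went with higher values of MT1X, MT2A and MT1H on every array, but no member passed the test. Of the 11 probe sets 0 were called at an adjusted p under 0.05, as were 0% of all probe sets tested. An unadjusted p under 0.05 in the higher direction was found for 4 of 11, against 9.53% of all probe sets, and 4 of 11 had every DAAD2 array above every DMSO array, against 11%. The 4 were the same in both counts. All were x_at probe sets that may bind the same transcripts, both annotated as MT1X among them, so they need not be separate results. The median log2 fold change of the 11 was 0.09, and that of all probe sets was -0.02. These shares and the median of all probe sets include dim ones. With dim ones filtered out, 4319 of 27280 probe sets had an unadjusted p under 0.05 in the higher direction. Their median log2 fold change was 0.06, and that of the 9 members kept was 0.17. The median of the 11 was 0.03 under quantile normalization, 0.02 under cyclic loess, 0.01 without Hep3B DAAD2 replicate 1, 0.15 and 0.18 without DAAD2 replicates 2 and 3 and 0.19 without Hep3B DMSO replicate 3.

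Probe set 204326_x_at moved most among the members. It measured 7.43, 7.27 and 6.88 in DAAD2 treated Hep3B and 5.93, 6.08 and 5.69 in DMSO controls. Every treated array was higher than every control array, with a gap wider than the range within either group. The log2 fold change was 1.29 (SE 0.16, 95% confidence interval 0.93 to 1.65), or 2.45-fold, and the adjusted p was 0.0581 (limma, unadjusted p = 2.5e-05). Only 15 of the 54613 probe sets had a more positive fold change in Hep3B. The adjusted p lay between 0.0074 and 0.268 over its 16 alternatives, and it was under 0.05 when the spread was estimated over all 12 arrays (0.0074), with a mean-variance trend (0.0269) and with arrays centred on their median (0.0479).

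MT1X 208581_x_at measured 8.27, 8.04 and 7.84 in DAAD2 treated Hep3B and 7.46, 7.52 and 7.63 in controls, without overlap. Its log2 fold change of 0.51 (SE 0.13, interval 0.22 to 0.79, 1.42-fold) did not pass the adjusted test (limma, adjusted p = 0.126). The intervals of the 2 probe sets annotated as MT1X did not overlap, so they gave different sizes of response, a difference that was not tested itself.

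MT2A measured 8.87, 8.93 and 8.66 in DAAD2 treated Hep3B and 8.26, 8.52 and 8.50 in controls. The groups were apart, by a log2 fold change of 0.40 (SE 0.12, interval 0.13 to 0.66, 1.31-fold, limma adjusted p = 0.176). MT1H measured 8.19, 7.97 and 8.0 in treated Hep3B and 7.85, 7.86 and 7.77 in controls, again without overlap, with a log2 fold change of 0.23 (interval 0.01 to 0.46, 1.17-fold, limma adjusted p = 0.317). Under quantile normalization and cyclic loess these fell to 0.25 and 0.26 for MT2A and to 0.07 and 0.09 for MT1H, with the same sign.

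MT1E, MT1F and MT1G overlapped between the Hep3B groups. MT1E 212859_x_at measured 7.05, 6.88 and 7.0 in treated Hep3B and 7.03, 7.01 and 6.74 in controls, and MT1E 216336_x_at measured 6.21, 6.28 and 6.44 in treated Hep3B and 6.04, 6.14 and 6.23 in controls. Their log2 fold changes were 0.05 and 0.17, the first turning to -0.12 under quantile normalization and -0.11 under cyclic loess. MT1G 204745_x_at measured 7.93, 8.16 and 8.15 in treated Hep3B and 7.92, 8.29 and 8.50 in controls, a log2 fold change of -0.16 (interval -0.51 to 0.19).

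MT1F varied most between arrays. Its probe set 213629_x_at measured 6.47, 5.83 and 5.28 in treated Hep3B and 6.02, 6.21 and 5.65 in controls, and the SD of 0.60 in the treated arrays was the widest of any member in any group. Its log2 fold change of -0.10 has an interval of -0.72 to 0.53, which leaves room for changes of either sign. MT1F 217165_x_at measured 7.31, 6.86 and 6.82 in treated Hep3B and 6.72, 6.89 and 7.11 in controls, a log2 fold change of 0.09 that turned to -0.08 and -0.07 under quantile normalization and cyclic loess. Treated replicate 1 was the highest treated array for both MT1F probe sets and also for MT1E 212859_x_at, MT1H and both annotated as MT1X.

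The dim probe sets gave -0.10 for MT1G 210472_at and 0.00 for MT1M in Hep3B, with groups that overlapped.

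**Figure D4:**
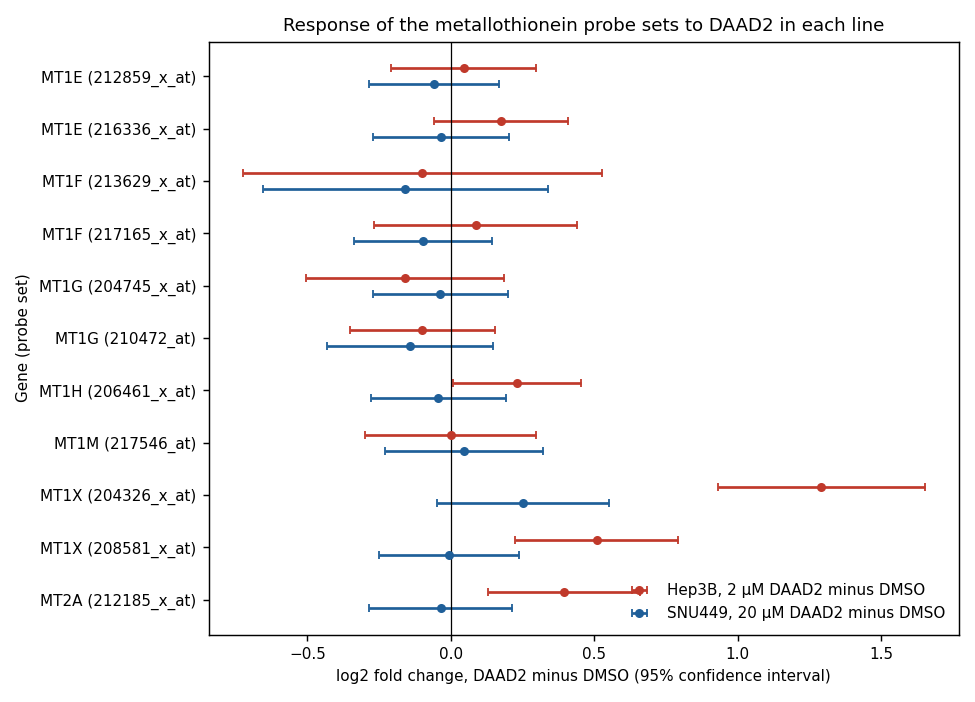
Log2 fold change (x axis) of DAAD2 treated over DMSO control arrays for each metallothionein probe set (y axis), with its 95% confidence interval, in Hep3B at 2 μM and in SNU449 at 20 μM. In Hep3B the intervals of 204326_x_at, 208581_x_at, MT2A and MT1H lie above 0, and in SNU449 every interval includes 0.

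In SNU449 no member moved beyond its spread at the higher dose. Of 11 probe sets 0 were called, against 1.46% of all probe sets tested, 0 had an unadjusted p under 0.05 in the higher direction, against 6%, and 0 had every DAAD2 array above every DMSO array, against 8.34%. The median log2 fold change was -0.04 for the members and 0.01 for all probe sets. Probe set 204326_x_at was again the one with the most positive value among the members, measuring 10.52, 10.84 and 10.80 in treated SNU449 and 10.53, 10.57 and 10.30 in controls. Its groups overlapped, and the log2 fold change of 0.25 has an interval of -0.05 to 0.55 (limma, adjusted p = 0.530).

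MT2A measured 13.24, 13.29 and 13.08 in treated SNU449 and 13.17, 13.24 and 13.30 in controls, a log2 fold change of -0.03 (interval -0.28 to 0.21). MT1X 208581_x_at measured 12.49, 12.66 and 12.50 in treated SNU449 and 12.49, 12.61 and 12.58 in controls, a log2 fold change of -0.01 (interval -0.25 to 0.24) whose sign turned under median centring, quantile normalization and cyclic loess. MT1H measured 12.64, 12.75 and 12.63 in treated SNU449 and 12.67, 12.78 and 12.70 in controls. These 3 differed by less than the spread of their arrays.

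The remaining MT1 probe sets of SNU449 behaved alike. MT1E 212859_x_at measured 12.10, 12.14 and 12.14 in treated SNU449 and 12.13, 12.21 and 12.22 in controls. MT1G 204745_x_at measured 11.65, 11.63 and 11.78 in treated SNU449 and 11.75, 11.74 and 11.68 in controls. Both overlapped, and all SNU449 log2 fold changes other than that of 204326_x_at lay between -0.16 and 0.05. MT1F 213629_x_at had again the widest interval among the members, -0.66 to 0.34, with 8.83, 9.16 and 8.86 in treated SNU449 and 8.57, 9.40 and 9.36 in controls.

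Whether the lines responded differently was tested as the Hep3B change minus the SNU449 change over all 12 arrays. Of the 11 probe sets 1 passed, against 2.01% of all probe sets tested. For 204326_x_at the Hep3B change exceeded the SNU449 change by 1.04 (SE 0.22, interval 0.58 to 1.5, limma adjusted p = 0.0279). This call was lost without any one of 7 of the 12 arrays, namely Hep3B DAAD2 replicates 1 and 2, Hep3B DMSO replicates 1 and 3, SNU449 DAAD2 replicate 1 and SNU449 DMSO replicates 1 and 2. With each of the 12 arrays left out in turn the adjusted p ran between 0.0143 and 0.0812.

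For MT1X 208581_x_at the difference was 0.51 (interval 0.16 to 0.86, limma adjusted p = 0.144) and for MT2A it was 0.43 (interval 0.09 to 0.77, limma adjusted p = 0.214), and neither was called. MT1H gave 0.28 with an interval of -0.01 to 0.56. The remaining 7 lay between -0.12 and 0.21, all with intervals that include 0.

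Beyond the 7 members, 3 of 12 further metallothionein genes and pseudogenes were measured. MT1HL1, an MT1H-like gene read by the x_at probe set 211456_x_at, measured 8.33, 8.17 and 8.14 in treated Hep3B and 7.99, 7.78 and 7.81 in Hep3B controls, and 12.47, 12.68 and 12.48 in treated SNU449 and 12.56, 12.72 and 12.64 in SNU449 controls. It went with the members, with a difference of -4.78 between Hep3B and SNU449 controls, and was apart between the Hep3B groups by 0.35 (limma, adjusted p = 0.173). MT3, the brain-enriched form, averaged 4.54 ± 0.12 in Hep3B controls and 4.52 ± 0.41 in SNU449 controls (SD, n = 3 each), which overlap. MT4, the form of stratified epithelium, averaged 4.03 ± 0.41 in Hep3B controls and 4.82 ± 0.21 in SNU449 controls (limma, adjusted p = 0.0159). It averaged 4.49 ± 0.11 in treated Hep3B, apart from its controls by 0.46 (limma, adjusted p = 0.298). For DAAD2 against DMSO, 0 of these 3 were called in either line.

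Zinc traffic was read from lists of exporters and importers. Of 29 probe sets of MTF1 and the SLC30 zinc exporters, 0 were called in Hep3B, and 1 was higher and 1 lower in SNU449. Of all probe sets tested, 0% were called in Hep3B and 1.46% in SNU449. A count of 0 in Hep3B therefore does not set apart this list or those below. The 2 calls went in opposite directions. SLC30A1, the plasma membrane zinc exporter, measured 6.57, 6.86 and 6.58 in treated SNU449 and 7.24, 7.27 and 7.37 in controls by 228181_at, a log2 fold change of -0.62 (limma, adjusted p = 0.0462). The groups did not overlap. A further SLC30A1 probe set, 212907_at, averaged 8.77 in treated SNU449 and 9.27 in controls. It was also lower without overlap but was not called (-0.51, limma adjusted p = 0.147). The probe set 242716_at, with averages of 3.45 and 3.35, overlapped and was not called (0.10, limma adjusted p = 0.895).

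SLC30A4, a vesicular zinc transporter, measured 6.56, 6.85 and 6.57 in treated SNU449 and 5.78, 5.91 and 6.15 in controls by 227193_at, a log2 fold change of 0.71 (limma, adjusted p = 0.0459). Its other probe sets, 207362_at and 238845_at, had group means of at most 3.14, overlapped and were not called (0.15 and 0.07, limma adjusted p = 0.753 and 0.900). Of 31 probe sets of the SLC39 zinc importers, 0 were called in Hep3B and 1 was higher in SNU449. SLC39A11 measured 6.83, 6.79 and 6.79 in treated SNU449 and 6.25, 6.0 and 5.85 in controls, a log2 fold change of 0.77 (limma, adjusted p = 0.0260). The groups of these 2 called probe sets were apart.

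In Hep3B these 3 transporters overlapped or lay lower on treatment. SLC30A1 228181_at measured 6.15, 6.21 and 6.22 in treated Hep3B and 6.07, 6.18 and 6.23 in controls, and SLC39A11 measured 8.15, 8.04 and 8.19 in treated Hep3B and 8.13, 8.11 and 8.20 in controls. SLC30A4 227193_at measured 3.29, 2.84 and 3.16 in treated Hep3B, against 3.34, 3.49 and 3.45 in controls, all below the array medians. The difference in response between the lines passed the test for all 3, at 0.66 for SLC30A1 228181_at (adjusted p = 0.0362), -1.05 for SLC30A4 (adjusted p = 0.0167) and -0.79 for SLC39A11 (limma, adjusted p = 0.0193). For SLC30A4 the size is uncertain, since its Hep3B values are that dim. In this difference 1 of the 29 probe sets of MTF1 and the exporters was called higher and 1 lower. The other probe sets of SLC30A1 and SLC30A4 were therefore not called.

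Stress genes that are induced together with metallothioneins by metals or oxidants were given by a further list. It had 21 probe sets for 10 genes, so some genes count more than once. Of the 21 probe sets, 0 were called in Hep3B and 1 in SNU449. The median log2 fold change was 0.10 in Hep3B and 0.32 in SNU449, where that of the members was -0.04. An unadjusted p under 0.05 in the higher direction was found for 6 of 21 in Hep3B and 10 of 21 in SNU449, and every DAAD2 array lay above every DMSO array for 8 of 21 and 12 of 21, beside the shares of all probe sets given above. Those shares include dim probe sets. With dim ones filtered out, 2496 of 28110 probe sets had such an unadjusted p in SNU449, and the Hep3B count is given above. In the exporter, importer, copper and glucocorticoid lists the same unadjusted count was 5 of 29, 7 of 31, 5 of 20 and 1 of 24 in Hep3B, and 1 of 29, 2 of 31, 0 of 20 and 1 of 24 in SNU449. HMOX1, heme oxygenase, measured 9.51, 9.22 and 9.39 in treated SNU449 and 8.69, 8.61 and 8.62 in controls, a log2 fold change of 0.73 (limma, adjusted p = 0.0233). In Hep3B it measured 7.0, 7.30 and 7.24 on treatment and 6.96, 7.25 and 7.18 in controls, which overlap.

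SLC7A11, the cystine importer, differed between the lines in its response by -0.87 at 217678_at (limma, adjusted p = 0.0276), with 5.88, 5.88 and 5.98 in treated Hep3B and 6.26, 6.27 and 6.27 in controls, and 4.44, 4.64 and 4.31 in treated SNU449 and 3.76, 3.86 and 4.24 in controls. At this probe set the groups were apart in both lines, lower on treatment in Hep3B and higher in SNU449, but neither change was called within its line (-0.36, adjusted p = 0.126, and 0.51, limma adjusted p = 0.185). The other SLC7A11 probe sets, 209921_at and 207528_s_at, overlapped in both lines, and their differences in response were not called (-0.56 and -0.38, limma adjusted p = 0.273 and 0.433). Of 20 probe sets of copper handling genes, 0 were called in either line.

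Among 24 probe sets of a glucocorticoid list, 0 were called in Hep3B and 1 in SNU449. The list holds glucocorticoid-induced genes and also NR3C1, the glucocorticoid receptor itself. DUSP1, a phosphatase that switches off MAP kinases, measured 10.76, 11.00 and 10.49 in treated SNU449 and 10.01, 9.98 and 10.02 in controls by 201041_s_at, a log2 fold change of 0.74 (limma, adjusted p = 0.0427). Its other probe sets, 201044_x_at and 226578_s_at, overlapped there and gave -0.09 and -0.03 (limma, adjusted p = 0.927 and 0.969). In Hep3B 201041_s_at measured 10.24, 10.59 and 10.43 on treatment and 10.68, 10.52 and 10.46 in controls, and the difference between the responses was -0.87 (limma, adjusted p = 0.0322). It was the only call among the 24 in that difference, so the other DUSP1 probe sets were not called.

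These calls in SNU449 were lost under many alternatives. That of SLC30A4 was lost without any one of the 6 arrays (adjusted p up to 0.184), those of SLC30A1 (up to 0.217) and HMOX1 (up to 0.124) without any one but DAAD2 replicate 2, that of DUSP1 (up to 0.178) without any one but DAAD2 replicate 3, and that of SLC39A11 (up to 0.131) without DAAD2 replicates 1 or 3 or DMSO replicates 2 or 3. All 5 were also lost with the replicate block (adjusted p between 0.0677 and 0.114) and with no moderation (0.173 or more). Calls over all probe sets in SNU449 fell too, from 798 to 262 with the replicate block and to 0 with no moderation. A loss with no moderation is therefore not particular to these genes. Without DMSO replicate 3 the calls over all probe sets fell to 105, and without DAAD2 replicate 2 they rose to 1168. With the GAPDH covariate SLC30A4 (0.0792) and DUSP1 (0.0638) lost theirs, and SNU449 DAAD2 replicate 2 was the array with the highest GAPDH 3′ minus 5′ signal. Counting every alternative, no moderation included, SLC30A4 lost its call in 12 of 18, SLC30A1 in 9 of 17 and DUSP1 in 9 of 18. HMOX1 lost its call in 7 of 18 and SLC39A11 in 6 of 18.

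**Figure D5:**
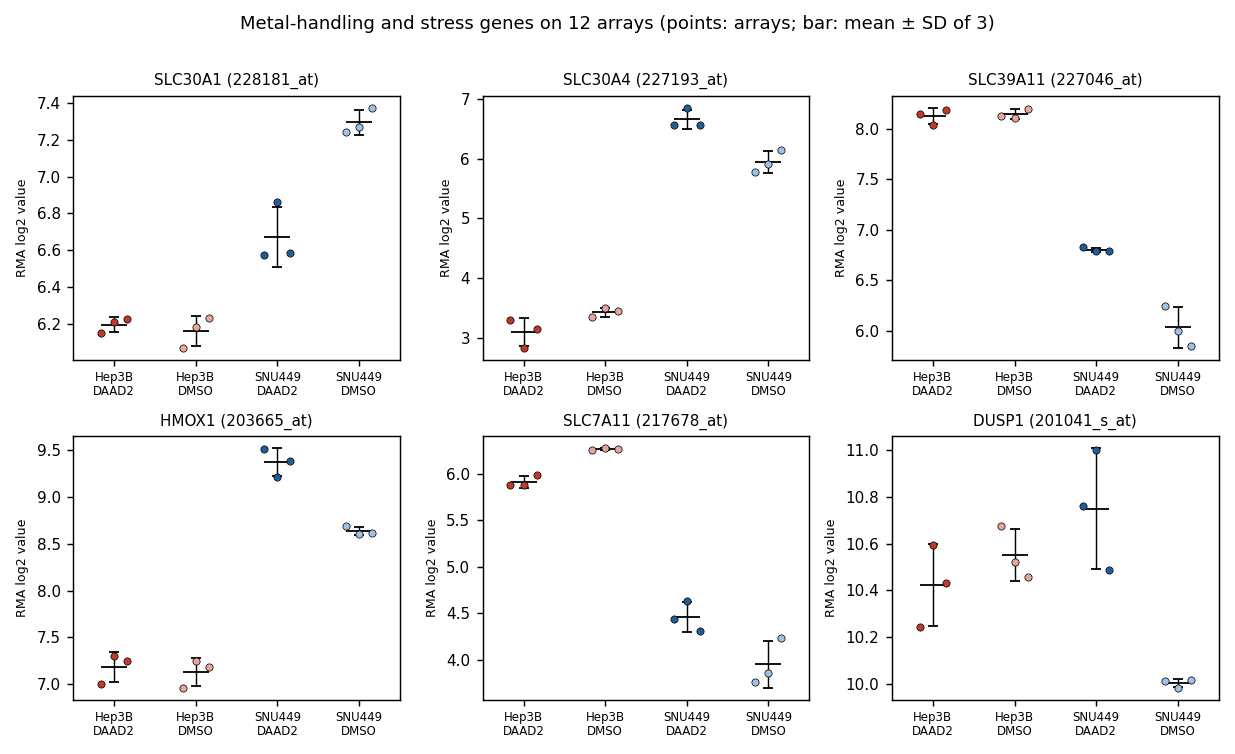
RMA log2 values (y axis, own range in each panel) of 6 genes of metal handling, oxidative stress and glucocorticoid response in the 4 groups (x axis). Points are arrays, and the bar with whiskers is the mean ± SD of 3 arrays. In SNU449, SLC30A1 lies lower and SLC30A4, SLC39A11, HMOX1, SLC7A11 and DUSP1 lie higher on every DAAD2 array than on every DMSO array.

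In controls these lists went both ways between the lines, where 14.5% of all probe sets were called higher and 14.8% lower in Hep3B. Of the 31 zinc importer probe sets, 7 were higher and 6 lower in Hep3B, of the 29 of MTF1 and the zinc exporters 3 were higher and 5 lower, and of the 20 of copper genes 7 were higher and 2 lower. Of the 21 stress probe sets 6 were higher and 9 lower, and of the 24 of the glucocorticoid list 3 were higher and 7 lower. The median differences of these 5 lists, Hep3B minus SNU449, were 0.05, -0.07, 0.19, -0.04 and -0.10, against -4.70 for the 11 members.

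The genes with the pattern most like the mean of the 9 bright probe sets were taken by Pearson correlation over the 6 arrays of a line, as a description. In Hep3B they were FAM117A (r = 0.998), ATP8B2, LPCAT1, COCH and EMC2, and 3.95% of 13414 genes had an r above 0.9. In SNU449, where that mean lay only between 11.54 and 11.72, they were CRYBG3 (r = 0.990), TMPRSS15, SPARC, SPATA6 and RABL3, and 0.61% of 13448 genes had an r above 0.9. The 6 arrays of a line share its cells and normalization.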

How the data were processed

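Total RNA of the 12 samples was hybridised to Affymetrix U133 Plus 2.0 arrays. The log2 values were made by the authors with RMA (which corrects background, normalizes arrays to each other and summarises probes, as the submitters' processing notes name it, version not given in the sources used here), and the study's methods name BRB Array Tools for normalization. Of 54675 probe sets, 62 control probe sets were left out and 54613 tested, with no filter on dim ones and 0 columns of values unused. Depth does not apply to arrays, whose number (3 per group) limits the precision.

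Groups came from the sample labels. Each line's DAAD2 and DMSO arrays were compared in a fit of their own with limma 3.58.1 in R 4.3.3 (lmFit and eBayes, two-sided), the difference in response as the interaction in a fit of 4 group means over 12 arrays, and the controls of the lines in a fit of the 6 control arrays. The Benjamini-Hochberg adjustment ran over all 54613 probe sets, and those with an adjusted p under 0.05 are called. Fold changes are DAAD2 minus DMSO, or Hep3B minus SNU449. The script was tested on simulated data.

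Symbols came from the platform annotation (41091 probe sets with 1 symbol, 1801 with several and 11721 with none). All member probe sets were named, and of the other lists the called genes, at most 4 per direction. Members and lists were chosen with earlier results of these data known, so their counts are not free of that choice, while the probe sets of a member follow from the annotation alone. Promoters came from the RefSeq table, and no protein sequence was used here. Alternatives changed the spread estimate, the replicate block, the scaling, the moderation, the threshold, the dim probe sets kept, 1 probe set per gene, a GAPDH 3′ minus 5′ covariate and each array in turn.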

Additional observations from a re-analysis of the deposited data

Results flagged for a closer look

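The tests of the difference in DAAD2 response, Hep3B minus SNU449, passed for 1 metallothionein probe set and 5 genes of the other lists, as log2 differences. The probe set 204326_x_at, annotated as MT1X, gave 1.0399, and its call was lost in 8 of 22 alternatives, 7 of which left out an array. SLC30A4 227193_at, a vesicular zinc transporter, gave -1.0468 and kept its call with each of the 12 arrays left out in turn (adjusted p between 0.0194 and 0.0491), but lost it with the replicate block (0.0634) and with no moderation (0.0745), and its Hep3B values lay below the array medians. SLC39A11 227046_at, a zinc importer, gave -0.7874, lost without Hep3B DAAD2 replicates 1 or 2, SNU449 DAAD2 replicate 1 or SNU449 DMSO replicates 2 or 3 (adjusted p up to 0.0620) and with the replicate block (0.0602), or 6 of 23 alternatives.

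SLC30A1 228181_at, the zinc exporter, gave 0.656, and its call was lost without any one array but SNU449 DAAD2 replicate 2 and SNU449 DMSO replicate 1 (adjusted p up to 0.105). It was also lost with the replicate block (0.103), quantile normalization (0.0618), cyclic loess (0.0618), a mean-variance trend (0.0908) and no moderation (0.0603), which makes 15 of 22 alternatives. SLC7A11 217678_at, the cystine importer, gave -0.8653, lost without any one of 8 arrays, those other than Hep3B DAAD2 replicate 3, SNU449 DAAD2 replicates 2 and 3 and SNU449 DMSO replicate 3 (adjusted p up to 0.0776), and with the replicate block (0.0982) and no moderation (0.0879), or 10 of 22 alternatives. DUSP1 201041_s_at, the phosphatase, gave -0.8742, lost without any one of 8 arrays, those other than Hep3B DAAD2 replicate 2, Hep3B DMSO replicate 3 and SNU449 DAAD2 replicates 2 and 3 (adjusted p up to 0.0901), and with the replicate block (0.0932), centring (0.0535) and no moderation (0.102), or 11 of 23 alternatives. Dose differed between the lines, so line and dose cannot be told apart in these differences.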

How the results depend on the processing

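The 9 metallothionein probe sets lower in Hep3B controls were called under every alternative that tested them, and 0 members were called in SNU449 under any. In Hep3B 1 member, 204326_x_at, was called instead of 0 at an adjusted p under 0.1, with all 12 arrays in a single fit, with arrays centred on their median and with a mean-variance trend. In the difference between responses 0 members were called instead of 1 with no moderation and with 1 probe set per gene, which does not test 204326_x_at, and 0 to 1 with an array left out. The cause of the other changes was not tested. Over all probe sets the alternatives called 0 to 686 in Hep3B (0 here), 0 to 1850 in SNU449 (798 here), and 337 to 2321 for the difference (1096 here), of which 661 were higher and 435 lower, against 467 and 592 under quantile normalization and 416 and 621 under cyclic loess. Treated and control arrays of a line that share a number did not deviate together (correlations of -0.33 to 0.13, and not every array was closest to its own number), so the numbers were not taken to pair arrays. With the replicate block the median of the members stayed at 0.0867 in Hep3B and -0.0361 in SNU449, and the same number of members was called in each comparison (0, 0, 1 and 9), while all probe sets called fell to 262 in SNU449 and 420 for the difference, and the 5 calls of SNU449 and 5 differences named from other lists were lost. Signal near that of the dimmest probe sets limits MT1G 210472_at and MT1M.

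Values that changed sign were small and never called. In Hep3B, MT1E 212859_x_at gave -0.1178 and MT1F 217165_x_at -0.0755 under quantile normalization, and -0.1069 and -0.0679 under cyclic loess, and MT1M gave -0.0423 with the GAPDH covariate. In SNU449, MT1X 208581_x_at gave 0.0051 under centring, 0.0086 under quantile normalization and 0.0141 under cyclic loess. For the difference, quantile normalization gave -0.0423 for MT1E 212859_x_at, -0.0532 for MT1F 213629_x_at, -0.0055 for MT1F 217165_x_at and 0.0208 for MT1M, cyclic loess gave -0.0688 for MT1E 212859_x_at, -0.0936 for MT1F 213629_x_at and 0.0348 for MT1M, and the GAPDH covariate gave -0.0693 for MT1F 213629_x_at.

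With each array left out in turn, Hep3B values ran between -0.0471 and 0.0971 for MT1E 212859_x_at, -0.4054 and 0.1928 for MT1F 213629_x_at, -0.0696 and 0.1859 for MT1F 217165_x_at and -0.1307 and 0.1169 for MT1M. SNU449 values ran between -0.0746 and 0.0102 for MT1E 216336_x_at, -0.0495 and 0.1052 for MT1M, -0.06 and 0.0236 for MT1X 208581_x_at and -0.0782 and 0.0265 for MT2A. Differences ran between -0.2464 and 0.3518 for MT1F 213629_x_at, -0.2819 and 0.0076 for MT1G 204745_x_at, -0.0538 and 0.1009 for MT1G 210472_at and -0.1776 and 0.0701 for MT1M. The control difference of MT1G 210472_at ran between -0.0979 and 0.0133.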
